A study of Homo sapiens with 8 samples.

Results

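10 genes of basal mammary epithelium or of desmosomes were followed. Of basal epithelium they were the keratins KRT5, KRT14 and KRT17 and the transcription factor TP63. Of desmosomes, which are not particular to basal cells, they were the cadherins DSC2, DSC3, DSG2 and DSG3 and the plaque genes DSP and PKP1. A gene was measured by probe sets that the platform annotation pairs with that gene alone, and 8 of the 10 named genes had such a probe set, 1 each, among 18417 genes. KRT17 and TP63 were not analysed here. Transcript levels came from 8 Affymetrix arrays, 2 in each of 4 groups, of a breast cancer cell line with truncated BRCA1, HCC1937, and of its derivative HCC1937+BRCA1, which expresses exogenous wild-type BRCA1. The groups were HCC1937+BRCA1 with 10 µM COH29 for 24 h, HCC1937+BRCA1 control, HCC1937 with the same COH29 exposure, and HCC1937 control. COH29 inhibits ribonucleotide reductase, which supplies deoxynucleotides to DNA synthesis. All groups share the HCC1937 background. The labels name no vehicle and no hours for the controls, so a vehicle or a longer culture cannot be told apart from COH29. They do not say whether the line with exogenous BRCA1 is 1 clone or a pool, which also cannot be told apart from the effect of BRCA1. Separate cultures for the arrays of a group are not stated either, and the p-values therefore measure the spread between these samples alone, which may be technical.

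Keratins are intermediate filament proteins that assemble in pairs of a type I and a type II chain, and KRT5 with KRT14 is the pair of the basal layer of stratified and mammary epithelium. Desmosomes anchor these filaments at cell contacts. Desmocollins (DSC) and desmogleins (DSG) are cadherins that join neighbouring cells, the armadillo proteins plakoglobin and plakophilins bind their tails, and desmoplakin (DSP) ties the plaque to keratin. Breast tumours that express basal keratins are called basal-like, a class in which tumours with inherited BRCA1 mutations are frequent.

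The deposited values are log2 intensities, on which a difference of 1 is a doubling of signal. Each probe set has its own binding strength, so levels were compared between arrays for a gene and not between genes, and no detection call was used. A gene was called different at a limma p-value under 0.05 after Benjamini-Hochberg adjustment over all genes, and standard errors (SE) come from that fit, with n = 2 arrays per group. The arrays of a group correlated with r between 0.996 and 0.997 across genes, and 8 of 8 arrays were nearest to the other array of their own group. The median SE of a log2 difference between groups was 0.103. With 2 arrays per group, groups can lie apart without a call, and the share of all genes without overlap was not counted. Statements on overlap below are therefore a description. BRCA1 itself differed by -0.08 ± 0.10 between HCC1937+BRCA1 and HCC1937 without COH29 (limma adjusted p = 0.62), and this level is therefore no check of which line an array holds. The line comparisons and the COH29 comparisons below share control arrays.

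**Figure D1:**
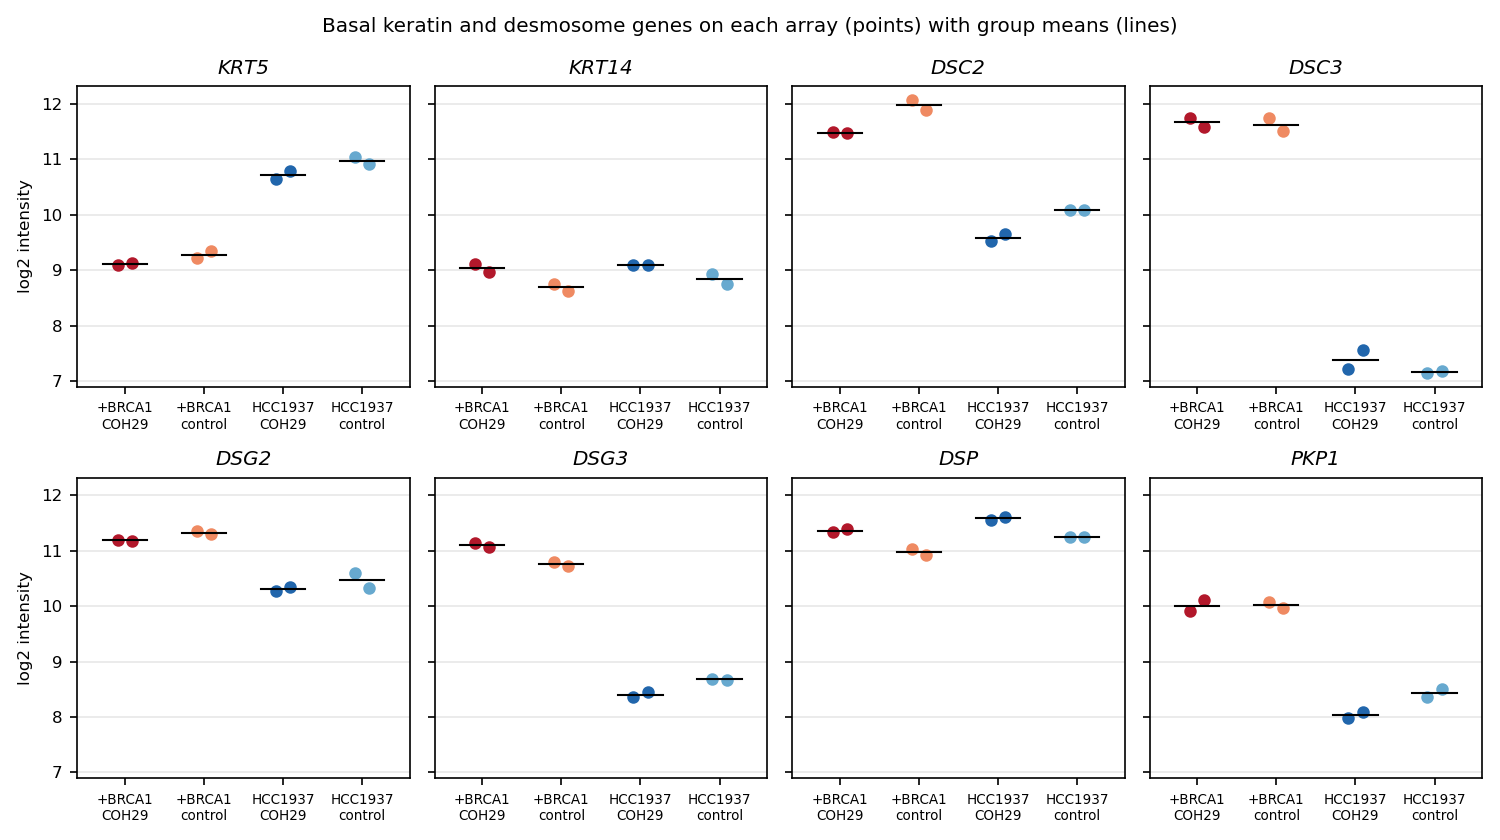
Log2 intensity (y axis) of each gene on every array (points) with group means (lines), for HCC1937+BRCA1 and HCC1937 with and without COH29. DSC3, DSC2, DSG2, DSG3 and PKP1 lie higher and KRT5 lower on all 4 arrays of HCC1937+BRCA1 than on all 4 of HCC1937, while KRT14 and DSP span less than 1 log2 unit.

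Without COH29, the desmosomal cadherins and the plakophilin PKP1 were higher in HCC1937+BRCA1 than in HCC1937, and KRT5 was lower. Of the 8 measured genes, 5 were called higher, against 16.4% of all genes tested, and 2 were called lower, against 14.8% of all genes tested. Their median log2 difference was 1.22, against -0.01 over all genes. The genes were chosen with earlier results of these data known, so these shares and medians are a description and no test. In such bulk samples a smaller share of cells with a transcript and less of it per cell cannot be told apart.

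DSC3, a desmocollin found mainly in the basal layers of stratified epithelia, had the widest span of group means, 4.51. It read 11.74 and 11.51 on the HCC1937+BRCA1 control arrays, against 7.14 and 7.18 on the HCC1937 control arrays. With COH29 it read 11.74 and 11.59 in HCC1937+BRCA1, against 7.21 and 7.55 in HCC1937. The lines were thus far apart on every array, and the groups with and without COH29 overlapped within HCC1937+BRCA1. The difference between the lines without COH29 was 4.47 ± 0.13 (SE), or 22.1-fold (limma adjusted p = 5.84e-08). With COH29 it was 4.29, or 19.5-fold (limma adjusted p = 8.44e-08). In each of 17 alternative analyses DSC3 stayed called between the lines without COH29, at 4.35 to 4.58.

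DSG3, a desmoglein of basal keratinocytes and the antigen of the blistering disease pemphigus vulgaris, read 10.80 and 10.73 on the HCC1937+BRCA1 control arrays, against 8.69 and 8.68 on the HCC1937 control arrays. The COH29 arrays read 11.15 and 11.08 in HCC1937+BRCA1, against 8.35 and 8.46 in HCC1937. All 4 arrays of HCC1937+BRCA1 were higher than all 4 of HCC1937. The difference was 2.08 ± 0.08 without COH29, or 4.23-fold (limma adjusted p = 3.08e-07), and 2.71 with COH29, or 6.53-fold (limma adjusted p = 9.98e-08). The order of group means was HCC1937+BRCA1 with COH29, HCC1937+BRCA1 control, HCC1937 control and HCC1937 with COH29.

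DSC2, the most widely expressed desmocollin, read 12.08 and 11.89 on the HCC1937+BRCA1 control arrays, against 10.09 and 10.08 on the HCC1937 control arrays. The COH29 arrays read 11.49 and 11.47 in HCC1937+BRCA1, against 9.52 and 9.65 in HCC1937. The 4 groups did not overlap with one another. The line difference was 1.90 ± 0.09, or 3.72-fold, both without and with COH29 (limma adjusted p = 1.1e-06 and 1.38e-06).

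DSG2, the desmoglein of simple epithelia and heart, showed a smaller step in the same direction. It read 11.36 and 11.30 on the HCC1937+BRCA1 control arrays, against 10.60 and 10.33 on the HCC1937 control arrays. On the COH29 arrays DSG2 read 11.20 and 11.18 in HCC1937+BRCA1, against 10.27 and 10.34 in HCC1937. The lines did not overlap, and within HCC1937 the arrays with and without COH29 did. The difference was 0.86 ± 0.10 without COH29, or 1.82-fold (limma adjusted p = 0.000219), and 0.89 with it, or 1.85-fold (limma adjusted p = 0.000189).

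PKP1, a plakophilin of stratified epithelia that clusters desmosomal cadherins, read 10.07 and 9.96 on the HCC1937+BRCA1 control arrays, against 8.37 and 8.51 on the HCC1937 control arrays. On the COH29 arrays PKP1 read 9.91 and 10.11 in HCC1937+BRCA1, against 7.98 and 8.09 in HCC1937. HCC1937+BRCA1 was again higher on all arrays. The difference was 1.58 ± 0.10 without COH29, or 2.99-fold (limma adjusted p = 5.9e-06), and 1.98 with it, or 3.94-fold (limma adjusted p = 1.88e-06).

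DSP, the plaque protein that binds keratin filaments, went the other way by a small amount. It read 11.03 and 10.92 on the HCC1937+BRCA1 control arrays, against 11.24 and 11.24 on the HCC1937 control arrays. With COH29 it read 11.33 and 11.39 in HCC1937+BRCA1, against 11.56 and 11.62 in HCC1937. The lines did not overlap within either condition. Without COH29 the difference was -0.27 ± 0.08 (limma adjusted p = 0.0361), and with COH29 it was -0.23 (95% interval -0.41 to -0.04, limma adjusted p = 0.0701). The call without COH29 was lost when either HCC1937+BRCA1 control array was left out (limma adjusted p = 0.0569 without replicate 1 and 0.191 without replicate 2). It was also lost without either HCC1937 control array (limma adjusted p = 0.138 without replicate 1 and 0.14 without replicate 2). With the replicate block it missed the threshold too (limma adjusted p = 0.0588).

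KRT5, the type II keratin of basal cells, was the other gene called lower in HCC1937+BRCA1. It read 9.21 and 9.34 on the HCC1937+BRCA1 control arrays, against 11.04 and 10.91 on the HCC1937 control arrays. With COH29 it read 9.10 and 9.13 in HCC1937+BRCA1, against 10.65 and 10.80 in HCC1937. Every HCC1937 array was above every HCC1937+BRCA1 array. The difference was -1.70 ± 0.10 without COH29, or 3.25-fold lower (limma adjusted p = 2.57e-06), and -1.61 with it, or 3.05-fold lower (limma adjusted p = 4.4e-06). Over the alternatives it lay between -1.77 and -1.63 without COH29.

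KRT14, the type I partner of KRT5, read 8.76 and 8.62 on the HCC1937+BRCA1 control arrays, against 8.93 and 8.74 on the HCC1937 control arrays. With COH29 it read 9.10 and 8.97 in HCC1937+BRCA1, against 9.10 and 9.09 in HCC1937. The lines overlapped without COH29. The line difference was -0.15 ± 0.10 without COH29 (95% interval -0.37 to 0.08, limma adjusted p = 0.33). With COH29 it was -0.06 ± 0.10 (95% interval -0.28 to 0.17, limma adjusted p = 0.733), and without HCC1937+BRCA1 COH29 replicate 2 it was 0.01. KRT14 shares much sequence with KRT16 and KRT17, so its probe set may also read their transcripts, which was not tested.

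**Figure D2:**
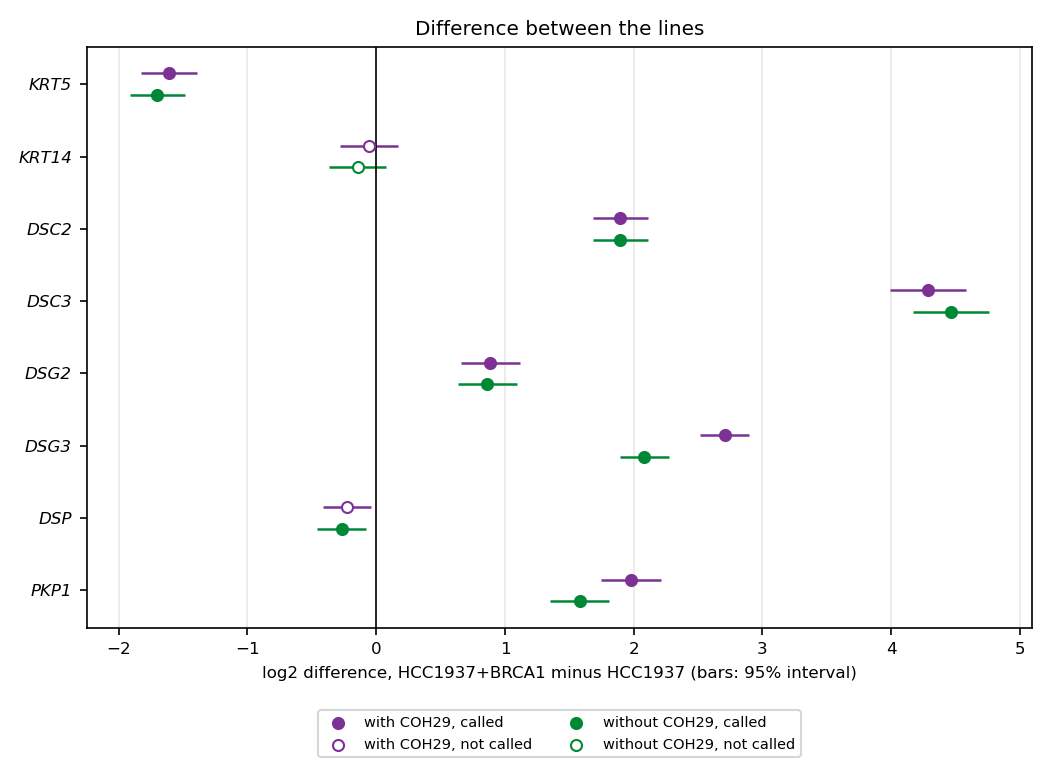
Log2 difference of HCC1937+BRCA1 minus HCC1937 (x axis) for each gene, with COH29 and without it, and 95% intervals as bars. DSC3 lies at 4.29 with COH29 and 4.47 without it, and KRT5 at -1.61 and -1.70.

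With COH29, 5 of the 8 genes were called higher in HCC1937+BRCA1 than in HCC1937, against 14.2% of all genes tested, and 1 was called lower, against 17.4%. Their median difference was 1.39, against 0.00 over all genes. The calls of KRT5, DSC2, DSC3, DSG2, DSG3 and PKP1 between the lines were kept in all 17 alternatives, in both conditions.

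The 4 measured desmosomal cadherins above lie side by side on chromosome 18, in RefSeq's gene order, with DSC1, DSG1 and DSG4 between them. DSC1, DSG1 and DSG4, which belong to differentiated skin and hair, differed by -0.19 (95% interval -0.44 to 0.06), 0.16 (95% interval -0.12 to 0.44) and 0.22 (95% interval -0.01 to 0.46) in HCC1937+BRCA1 against HCC1937 without COH29, and none passed the test (limma adjusted p = 0.255, 0.403 and 0.153). Their group means lay at 4.72 to 5.31, and with no detection call it is not known whether these transcripts were present. So 4 of the 7 cluster genes were called higher, and 2 of 10 among the 5 nearest measured genes on each side, against 16.4% of all genes tested. The share of the flanking genes is near that background, but the group means of AQP4, AQP4-AS1, CHST9 and SLC25A52 lay at only 4.15 to 4.80. Whether these flanking transcripts were present is not known either, so the share does not show where the line difference ends. CDH2, the gene of N-cadherin, next to DSC3, was higher by 3.89 ± 0.09 (limma adjusted p = 2.85e-08), and TRAPPC8, a gene of vesicle tethering beyond DSG2, by 0.67 ± 0.13 (limma adjusted p = 0.00367). The neighbourhood was examined after the values of its genes had been seen.

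**Figure D3:**
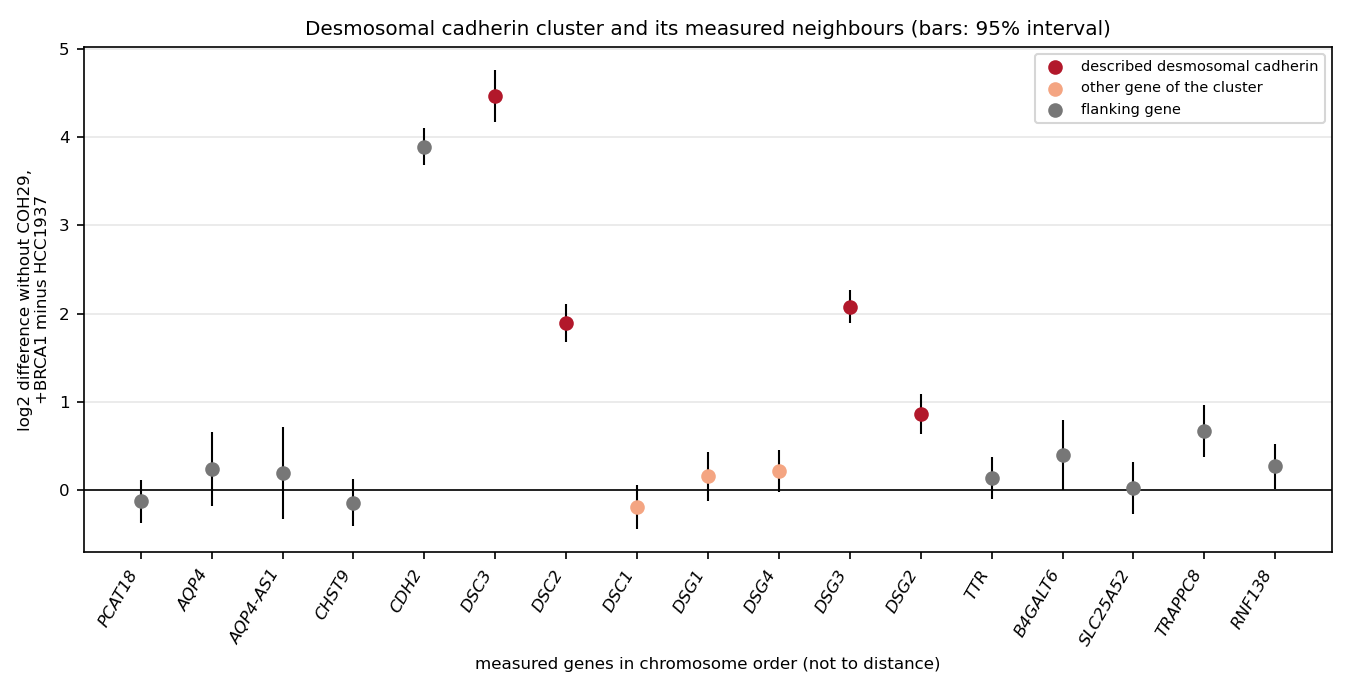
Log2 difference of HCC1937+BRCA1 minus HCC1937 without COH29 (y axis, bars are 95% intervals) for the genes of the desmosomal cadherin cluster and 5 measured genes on each side, in chromosome order and not to distance. CDH2 and DSC3 lie at 3.89 and 4.47, while DSC1, DSG1 and DSG4 lie between -0.19 and 0.22.

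Promoter sequence was available in RefSeq's table (assembly GRCh38.p14) for 7 of the 8 measured genes, as windows of 250 bases before and 50 bases from the start site. Those of DSC3, DSG3 and DSC2, which were higher in HCC1937+BRCA1, and of KRT5, which was lower, are shown because these genes had the largest line differences among the 8 measured genes within the desmosomal cadherins and within the keratins. The windows are DSC3 at chr18:31042693-31042992 (minus strand), DSG3 at chr18:31447491-31447790 (plus strand), DSC2 at chr18:31102372-31102671 (minus strand) and KRT5 at chr12:52520345-52520644 (minus strand). DSC2 had 2 windows in the table, of which the first is shown. Capitals mark matches to CACCTG (the E-box letters read by SNAI and ZEB repressors) or to GCCNNNGGC (an AP-2 element) on either strand.
DSC3: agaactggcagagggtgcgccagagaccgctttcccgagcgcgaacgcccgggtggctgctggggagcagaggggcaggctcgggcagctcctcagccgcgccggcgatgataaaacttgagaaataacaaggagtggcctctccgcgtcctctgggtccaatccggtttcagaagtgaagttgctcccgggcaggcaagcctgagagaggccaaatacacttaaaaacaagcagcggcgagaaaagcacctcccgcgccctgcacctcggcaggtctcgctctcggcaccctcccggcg
DSG3: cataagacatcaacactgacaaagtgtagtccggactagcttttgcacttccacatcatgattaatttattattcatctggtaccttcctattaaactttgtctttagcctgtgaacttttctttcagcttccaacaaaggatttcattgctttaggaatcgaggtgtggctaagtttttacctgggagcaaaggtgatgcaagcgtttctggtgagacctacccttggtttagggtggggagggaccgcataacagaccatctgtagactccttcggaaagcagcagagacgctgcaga
DSC2: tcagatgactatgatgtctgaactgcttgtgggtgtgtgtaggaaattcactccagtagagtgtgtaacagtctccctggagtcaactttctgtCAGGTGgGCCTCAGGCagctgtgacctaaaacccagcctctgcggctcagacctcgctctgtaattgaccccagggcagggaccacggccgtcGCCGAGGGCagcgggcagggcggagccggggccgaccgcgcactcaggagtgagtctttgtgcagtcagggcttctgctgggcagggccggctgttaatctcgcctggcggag
KRT5: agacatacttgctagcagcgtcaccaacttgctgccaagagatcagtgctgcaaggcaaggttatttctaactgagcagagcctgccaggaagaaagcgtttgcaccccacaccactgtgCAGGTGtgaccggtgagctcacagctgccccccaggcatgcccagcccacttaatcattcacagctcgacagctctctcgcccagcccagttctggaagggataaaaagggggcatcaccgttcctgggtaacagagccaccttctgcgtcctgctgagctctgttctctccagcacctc

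The motif search covered the E-box CACCTG, the AP-2 element GCCNNNGGC, the AP-1 element TGANTCA and the TATA element TATAAA on both strands, and these motifs were chosen with the results known. An E-box match lies in the KRT5 window at -130 from the start site and in the DSC2 window at -156. In the DSC2 window AP-2 matches follow at -149 and -63. DSG2 and DSP each had 2 E-box matches, and DSG2 had 1 AP-2 match. None of the 4 motifs matched in the DSC3, DSG3 or PKP1 windows. Of 35116 such windows, 20.6% held the E-box, 23.2% the AP-2 element, 7.71% the AP-1 element and 11.5% the TATA element, so these matches are common letters and only a description. The DSC3 window was 63.3% GC with 25 CpG sites, and the DSG3 window 44.0% GC with 6 CpG sites, against a median of 58.7% GC over all windows.

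In HCC1937+BRCA1, COH29 was followed by higher DSG3, DSP and KRT14 and lower DSC2. Of the 8 genes, 3 were called higher, against 13.6% of all genes tested, and 1 was called lower, against 20.1%. Their median log2 change was 0.02, against 0.04 over all genes. In HCC1937, 1 of the 8 genes was called higher with COH29, against 10.2% of all genes tested, and 3 were called lower, against 12.5%. The median there was -0.21, against 0.04 over all genes. Arrays with and without COH29 also did not overlap for some changes that were not called. These were KRT5 in both lines, KRT14 and DSC3 in HCC1937, and DSG2 in HCC1937+BRCA1. With arrays shifted to one median, 54.4% of all calls were higher with COH29 in HCC1937+BRCA1 in place of 40.3%, and 26.9% with the median of all probe sets.

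DSC2 fell with COH29 in both lines. The change was -0.50 ± 0.09 in HCC1937+BRCA1, or 1.42-fold lower (limma adjusted p = 0.0031), and -0.50 ± 0.09 in HCC1937, or 1.42-fold lower (limma adjusted p = 0.005). Both arrays with COH29 were lower than both controls in each line. These calls were lost only when a change had to exceed 0.3 on the log2 scale (limma adjusted p = 0.187 in HCC1937+BRCA1 and 0.293 in HCC1937).

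DSP rose with COH29 in both lines, by 0.39 ± 0.08 in HCC1937+BRCA1 (limma adjusted p = 0.00657), or 1.31-fold, and by 0.34 ± 0.08 in HCC1937 (limma adjusted p = 0.0174), or 1.27-fold. The groups did not overlap in either line. In HCC1937 the call was lost without COH29 replicate 2 (limma adjusted p = 0.0687), control replicate 1 (limma adjusted p = 0.0892) or control replicate 2 (limma adjusted p = 0.0906).

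DSG3 moved in opposite directions. It rose by 0.35 ± 0.08 with COH29 in HCC1937+BRCA1, or 1.27-fold (limma adjusted p = 0.0115), while in HCC1937 it fell by 0.28 ± 0.08 (limma adjusted p = 0.042). The difference of the COH29 effects, HCC1937+BRCA1 minus HCC1937, was 0.63 ± 0.12 (95% interval 0.36 to 0.90, limma adjusted p = 0.0525), so the opposite directions missed the threshold. The call in HCC1937 was lost when any 1 of the 8 arrays was left out (limma adjusted p = 0.0531 to 0.185). The rise in HCC1937+BRCA1 was lost without its COH29 replicate 1 (limma adjusted p = 0.0631) or control replicate 2 (limma adjusted p = 0.0648).

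KRT14 rose with COH29 in HCC1937+BRCA1 by 0.35 ± 0.10, or 1.27-fold (limma adjusted p = 0.0248). KRT16, whose transcript this probe set may also read, rose by 0.59 there and by 0.76 in HCC1937, and its part was not tested. In HCC1937 KRT14 was higher by 0.26 ± 0.10 (95% interval 0.03 to 0.48, limma adjusted p = 0.0973), which missed the threshold. The call in HCC1937+BRCA1 was lost without its COH29 replicate 1 (limma adjusted p = 0.126) or control replicate 2 (limma adjusted p = 0.122). KRT5 differed by -0.16 ± 0.10 (95% interval -0.38 to 0.05, limma adjusted p = 0.211) in HCC1937+BRCA1. In HCC1937 it differed by -0.26 ± 0.10 (95% interval -0.47 to -0.04, limma adjusted p = 0.0887), so neither change of KRT5 was called. In HCC1937 it was called when genes of low level were left out (limma adjusted p = 0.0495) and with robust moderation that follows a trend in level (limma adjusted p = 0.0278).

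PKP1 fell by 0.40 ± 0.10 on the log2 scale with COH29 in HCC1937 (limma adjusted p = 0.0209), or 1.32-fold lower. In HCC1937+BRCA1 it differed by -0.01 ± 0.10 (95% interval -0.24 to 0.22, limma adjusted p = 0.965). The difference of these effects was 0.40 ± 0.14 (95% interval 0.07 to 0.72), with a limma adjusted p of 0.288. The call in HCC1937 was lost without COH29 replicate 1 (limma adjusted p = 0.11) or control replicate 2 (limma adjusted p = 0.145). DSC3 and DSG2 had intervals that included 0 in both lines. DSC3 differed by 0.04 (95% interval -0.25 to 0.33, limma adjusted p = 0.824) in HCC1937+BRCA1 and by 0.22 (95% interval -0.07 to 0.52, limma adjusted p = 0.263) in HCC1937. DSG2 differed by -0.14 (95% interval -0.37 to 0.09, limma adjusted p = 0.325) and by -0.16 (95% interval -0.39 to 0.07, limma adjusted p = 0.3).

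**Figure D4:**
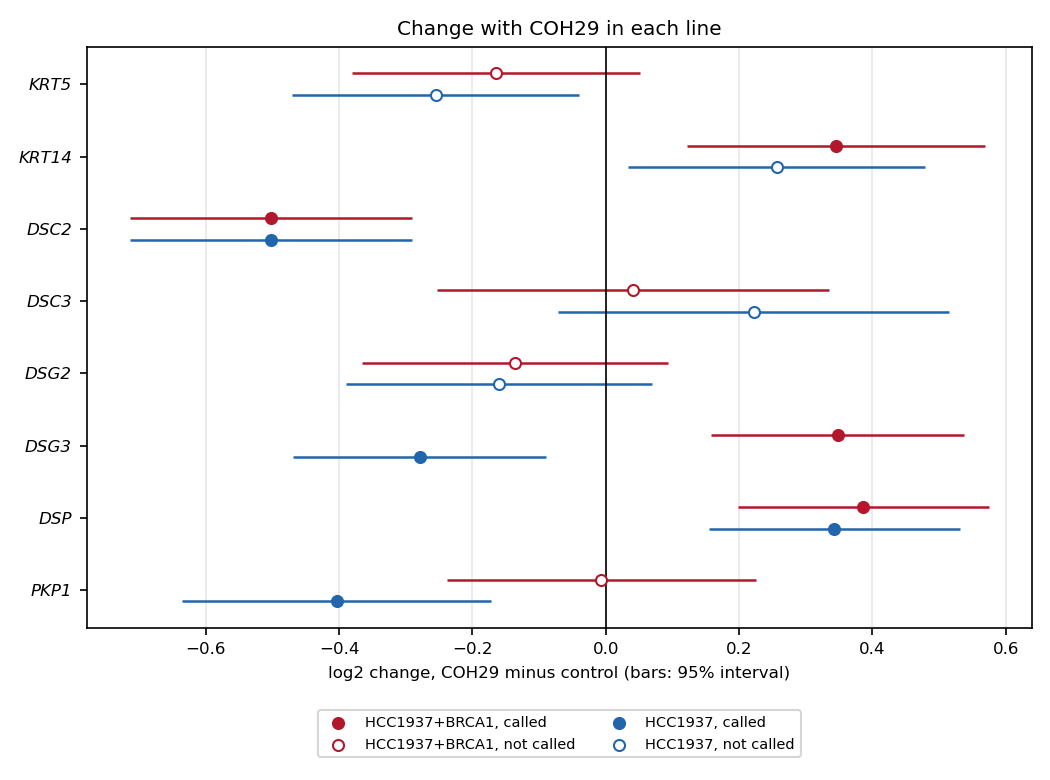
Log2 change with COH29 minus control (x axis, bars are 95% intervals) for each gene in HCC1937+BRCA1 and in HCC1937, filled where called. DSC2 lies at -0.50 in both lines and DSG3 at 0.35 in HCC1937+BRCA1 and -0.28 in HCC1937.

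By the difference of COH29 effects between the lines, limma called 0 of the 8 genes, and 2, DSG3 and PKP1, had an unadjusted p under 0.05. Over all genes tested 0.543% were called higher and 0.413% lower in this comparison. The adjusted p-values of the other 6 genes were 0.754 or more.

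Genes of the same structures were described from lists of 13 kinds, which were put together with earlier results known, and counts are of genes called by limma. Beside the list counts for the lines without COH29 stand 16.4% higher and 14.8% lower over all genes tested, so small counts such as 1 or 2 in a list of this size are near that background. Beside the counts with COH29 stand 13.6% higher and 20.1% lower in HCC1937+BRCA1, and 10.2% higher and 12.5% lower in HCC1937. Among 11 other desmosome and plaque genes without COH29, 2 were higher in HCC1937+BRCA1 than in HCC1937 and 1 was lower. PKP4, a plakophilin relative, was higher by 0.38 ± 0.08 and JUP, the gene of plakoglobin, lower by 0.26 ± 0.08 on the log2 scale. Without HCC1937+BRCA1 control replicate 1 or 2 this list had 1 higher and 0 lower, and without HCC1937 control replicate 1 or 2 it also had 0 lower, with 1 higher without replicate 2. With COH29, PKP4 fell in HCC1937+BRCA1 by 0.70 ± 0.08 on the log2 scale, PKP2 fell by 0.42, and PPL (periplakin) and JUP, both higher, passed the test at 0.35 and 0.26. The last 2 calls were both lost without HCC1937+BRCA1 COH29 replicate 1 or 2 or control replicate 2, and 1 of them without HCC1937+BRCA1 control replicate 1 or either HCC1937 control array. In HCC1937 this list had 1 higher and 1 lower. PPL rose there by 0.38 ± 0.09 (limma adjusted p = 0.0182), a call lost without COH29 replicate 2 or either control array, and PKP2 fell by 0.46, a call lost without control replicate 1.

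Of 5 other basal and stress keratins measured, 3 were higher and 1 lower in HCC1937+BRCA1 than in HCC1937 without COH29. KRT6A, KRT6B, KRT6C, KRT81 and KRT86 were named in this list but not measured. KRT80, 1 of the higher ones at 0.27 ± 0.08, lost its call with the replicate block, among other settings. With COH29 KRT80 was lower in HCC1937+BRCA1 than in HCC1937, at -0.33 ± 0.08 (limma adjusted p = 0.015). KRT15, a keratin of basal epithelial cells, was higher by 1.06 ± 0.08 and KRT75 by 0.79 ± 0.13, while KRT23 was lower at -4.11 ± 0.13. KRT15 thus differed between the lines in the direction opposite to KRT5. With COH29 the list had 1 gene higher and 2 lower in HCC1937+BRCA1, against 13.6% and 20.1% of all genes tested, with a median of -0.34. In HCC1937 it had 1 higher and 0 lower, against 10.2% and 12.5%, with a median of -0.12. In HCC1937+BRCA1 KRT80 fell by 0.46 ± 0.08 and KRT15 by 0.44 ± 0.08 on the log2 scale (limma adjusted p = 0.00274 for both). KRT16, a keratin of stressed epithelium, rose with COH29 by 0.59 ± 0.10 in HCC1937+BRCA1 (limma adjusted p = 0.00149) and by 0.76 ± 0.10 in HCC1937 (limma adjusted p = 0.000676). Of 5 simple and luminal keratins, 1 was higher and 2 lower without COH29, with KRT19 at -0.82 ± 0.08. The higher one, KRT7, was lost without any HCC1937+BRCA1 array or HCC1937 control replicate 2, and KRT20, one of the lower ones, without any 1 of the 4 control arrays. KRT8 and KRT18, the simple epithelial pair, lay at 12.89 to 13.33 on all 8 arrays. Neither was called between the lines without COH29, at 0.15 ± 0.08 and 0.03 ± 0.08. These levels were not compared with those of the basal keratins.

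The other junction lists were counted between the lines without COH29. Of 7 hemidesmosome and laminin-332 genes, 1 was higher, PLEC (plectin) at 0.36 ± 0.08, a call lost without HCC1937+BRCA1 control replicate 1 or HCC1937 control replicate 1. Of 8 adherens junction genes, AFDN (afadin) was higher at 0.64 ± 0.09 and CTNNB1 (beta-catenin) lower at -0.73 ± 0.08, and 2 were lower without either HCC1937 COH29 array. Of 8 tight junction genes, 1 was higher and 3 were lower, with CLDN3 (claudin 3) at -0.91 ± 0.08.

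Lists of epithelial states were counted in the same comparison. Of 21 genes listed under the cornified envelope, 2 were higher and 12 lower in HCC1937+BRCA1 than in HCC1937 without COH29, with a median of -0.72. This list also held keratins (KRT4, KRT13) and S100 genes (S100A7, S100A8), so it does not stand for late squamous differentiation alone. S100A8 was lower at -1.97 ± 0.09, SPRR1B at -1.72 ± 0.10 and KRT13 at -1.70 ± 0.11. Of 19 basal and squamous regulators, 2 were higher and 5 lower. ZNF750, a regulator of epidermal differentiation, was lower at -1.38 ± 0.13 and KLF4 at -1.16 ± 0.11. This list had 0 to 1 higher and 3 lower when any 1 of the 4 control arrays was left out, and 1 higher without either HCC1937+BRCA1 COH29 array. Of 13 basal-like breast tumour markers, 6 were higher and 4 lower, with S100A2 at 2.51 ± 0.13 and FAT2 at -0.89 ± 0.08.

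Markers of other cell types were counted as well. Of 12 mesenchymal markers, 4 were higher, among them CDH2 at 3.89 and VIM (vimentin) at 3.56 ± 0.09, and 1, SNAI2, was lower at -1.38 ± 0.15. The mean level of this list per array was 7.88 to 7.90 in HCC1937+BRCA1 control, against 7.10 to 7.23 in HCC1937 control. Of 11 luminal mammary markers, 5 were lower and 0 higher in HCC1937+BRCA1, among them ELF5 at -3.66 ± 0.10 and SPDEF at -2.15 ± 0.10, and 7 had an unadjusted p under 0.05. Their mean was 8.48 to 8.54 in HCC1937+BRCA1 control, against 9.20 to 9.23 in HCC1937 control. Of 7 myoepithelial contractile genes, 1 was higher, TPM2 at 4.23 ± 0.15, and 2 lower, of which MYLK was lost without HCC1937+BRCA1 control replicate 1 or HCC1937 control replicate 2. Of 6 blood and endothelial markers, 3 were lower, with CD14 at -3.77 ± 0.12. PECAM1 was among them at -1.19 ± 0.10, and its call was lost when a gene's probe sets were averaged. The part of these markers in the cadherin and keratin differences was not tested.

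**Figure D5:**
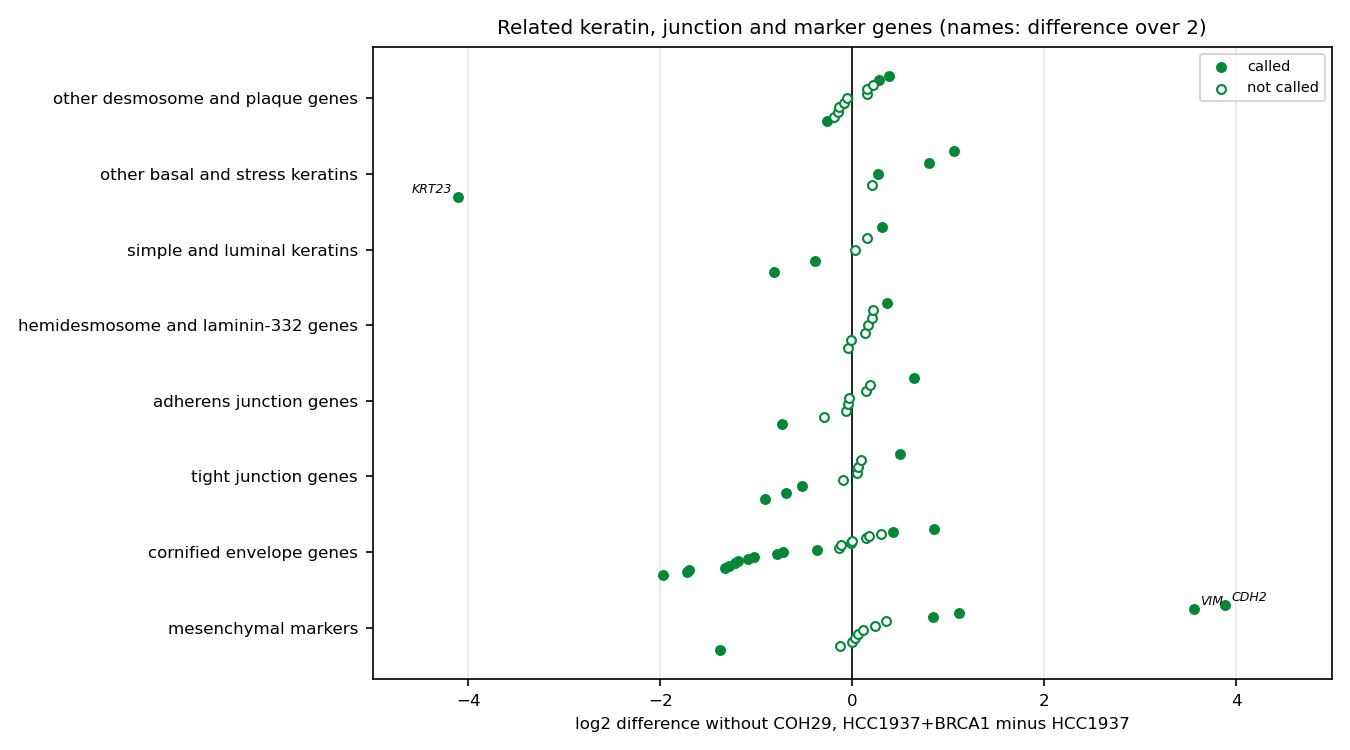
Log2 difference of HCC1937+BRCA1 minus HCC1937 without COH29 (x axis) for each gene of 8 related lists, filled where called. Most desmosome and junction genes lie within 1 of 0, while KRT23 lies at -4.11 and CDH2 and VIM at 3.89 and 3.56.

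The genes most like the 3 widest-ranging ones across the 8 arrays were ranked among 2614 other genes whose group means spanned at least 1 log2 unit. DSC3 was followed most closely by FRRS1, CDH2 and PYGL, each with a Pearson r of 0.999. For DSG3 they were GPC1, HSPB8 and AUTS2, with r of 0.997, 0.996 and 0.995. For DSC2 they were NFIB, GALNT3 and RPL39L, with r of 0.998, 0.998 and 0.997. The arrays form clusters by line and share groups, so these correlations describe the pattern across the groups and carry no test.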

How the data were processed

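The deposited table gives 33297 probe sets as log2 intensity on 8 arrays. The authors' processing, per the submitters' processing notes, used RMA and Partek, with no version. RMA corrects the background, equalises the arrays' distributions and summarises probes, and the sorted values differed by at most 0.297 between arrays. The genome build was not given in the sources used here. In the platform annotation 19460 probe sets had 1 gene, 1754 several and 12083 none, and the last kinds were left out. Of the named ones, 19429 matched RefSeq. Where a gene had several, that of highest mean over the arrays was taken, leaving 18417 genes.

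The limma package (3.58.1, R 4.3.3) fitted the 4 group means over 8 arrays with moderated errors and 4 residual degrees of freedom, and a call required p under 0.05 after Benjamini-Hochberg adjustment over all genes. Python 3.11.15 with pandas 2.3.3 and matplotlib 3.10.9 made the promoter tables and plots. The fit was run on simulated data with independent noise and known changes. That run checks the code and cannot check the replicates, the lines or the scaling of these arrays. The members and the 13 lists (133 genes measured) were chosen with earlier results of these data known. All members were named, and of each list up to 4 called genes with the largest change per comparison, with names left out for length. Alternatives were a filter at the 30th percentile of level, shifting arrays to one median, cyclic loess, moderation that is robust and follows a trend in level, averaged probe sets, a replicate block, a threshold of 0.3 on the log2 change, a fit to the 4 arrays of a comparison alone, and leaving out each array. A shift to the median of all probe sets and a crossed block were added after seeing the data. Whether the replicate numbers pair the samples is not stated, and the main fit did not pair them. Deviations of same-numbered arrays correlated at 0.26 between COH29 and control in HCC1937+BRCA1 and at 0.04 in HCC1937. Between the lines they correlated at -0.10 without COH29 and at -0.09 with it. The number of arrays limits the precision. Scanner files and scan dates were not used here.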

Additional observations from a re-analysis of the deposited data

Results flagged for a closer look

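DSG3 was higher on both COH29 arrays of HCC1937+BRCA1 and lower on both COH29 arrays of HCC1937, relative to the controls of each line. The rise stayed called in 13 of 17 alternatives and the fall in 4 of 17. The difference of the effects, HCC1937+BRCA1 minus HCC1937, was 0.63 ± 0.12 (log2 difference and SE, with n = 2 arrays a group). Its limma adjusted p of 0.0525 missed the threshold.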

How the results depend on the processing

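Over the alternatives, 603 of 672 values of the 8 genes kept direction and side of the threshold. Of the others, 40 missed it, 8 gained it and 21 turned sign. Some alternatives used fewer arrays or a stricter threshold, and the cause of these shifts was not tested. With a minimum log2 change of 0.3, genes called were 2127 for COH29 in HCC1937+BRCA1, 1052 for COH29 in HCC1937, 33 for the difference of effects, and 2238 and 2262 for the lines without and with COH29. Of the 8 genes, 0 were then called higher and 0 lower with COH29 in either line. Between the lines without COH29, 1 was lower under this setting, the replicate block, only the 4 arrays compared, or a shift to the median of all probe sets. That added shift gave 1 higher with COH29 in HCC1937+BRCA1 and 0 in HCC1937. In HCC1937+BRCA1 it put DSC3 at -0.0414 with COH29, and for the difference of effects it put DSG2 at -0.0203 and DSP at -0.0005. With arrays shifted to one median and with cyclic loess, PKP1 with COH29 in HCC1937+BRCA1 was 0.0598 and 0.0335, and DSC2 in the difference of effects 0.0346 and 0.028. The 176 genes called for the difference of effects became 351 with the percentile filter, 566 with trend and robust, and 106 with the replicate block. There 1 of the 8 genes, DSG3, was called higher with the filter (limma adjusted p = 0.0212), the median shift (0.0459), cyclic loess (0.0381) and trend and robust (0.00407). With COH29, 2 genes were lower in HCC1937+BRCA1 than in HCC1937 under the filter and under trend and robust, the added one being DSP (limma adjusted p = 0.037 and 0.0101). The replicate block left 3779 calls for COH29 in HCC1937, against 4179, and changed no other call of the 8 genes than DSG3 in HCC1937 (limma adjusted p = 0.0665) and DSP. With the numbers crossed between the lines these calls were 4777.

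Leaving out each array in turn gave 2336 to 4012 calls for COH29 in HCC1937 and 41 to 67 for the difference of effects. Of the 8 genes, 1 to 3 were higher with COH29 in HCC1937+BRCA1, 0 to 1 higher and 1 to 2 lower in HCC1937, and 1 to 2 lower between the lines without COH29. The values that turned sign were near 0. COH29 in HCC1937+BRCA1 gave -0.0768 to 0.16 for DSC3 and -0.11 to 0.0927 for PKP1. The difference of effects gave -0.0042 to 0.18 for KRT14, -0.0938 to 0.0933 for DSC2, -0.11 to 0.16 for DSG2 and -0.0141 to 0.10 for DSP. KRT14 between the lines with COH29 gave -0.12 to 0.0104. The share of calls that were higher with COH29 in HCC1937 was 44.8%, and 52.1% with arrays shifted to one median or 36.1% with the median of all probe sets. For the difference of effects it was 56.8%, 65.1% and 46.7%.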
